A study of Mus musculus with 12 samples.

Results

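The left ventricle of UNX/DOCA mice on normal chow was compared with that of sham-operated mice on normal chow. The comparison rests on 8 of the 12 libraries of the series, chosen by their sample titles, with 4 in each group. UNX/DOCA vehicle mice had surgery that removes a kidney (uninephrectomy, UNX) and delivers the mineralocorticoid deoxycorticosterone acetate (DOCA), used here to bring on diastolic dysfunction, a failure of the ventricle to relax and fill. Sham vehicle mice had the sham operation. From 4 weeks after surgery both groups ate normal chow for a further 4 weeks and neither received ITF2357. The labels give each library as a separate biological replicate and name no strain, sex or age. About 10 mg of ventricle per animal gave poly(A) RNA, so every cell type of the piece contributes to each value. The remaining 4 libraries, from UNX/DOCA mice on chow with the histone deacetylase inhibitor ITF2357, entered only the estimate of spread between replicates.

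In this model the mineralocorticoid makes the kidney hold back salt and water, and the ventricle pumps against a raised pressure and volume. Loaded cardiomyocytes are known to switch on stretch-responsive genes, such as those for the natriuretic peptides and the ankyrin repeat protein Ankrd1, and to lower genes of calcium cycling and of the potassium currents. Fibroblasts of a loaded heart can make more collagen, proteoglycans and the enzymes that crosslink them, which stiffens the wall. Mineralocorticoids also act on the heart through their own receptor, which the glucocorticoid receptor resembles closely, and the targets of the pair of receptors overlap.

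Total counts ran from 23.4 to 32.0 M in UNX/DOCA vehicle and from 25.3 to 34.9 M in Sham vehicle. Levels are given below as CPM, a gene's counts scaled to a common library total after correction for composition, and 1 CPM stands for about 28 reads. The libraries matched the labelled chamber: the ventricular light chain Myl2 had at least 133628 counts in each, while the atrial genes Myl7, Sln and Bmp10 had at most 16, 11 and 4. UNX/DOCA vehicle libraries were more spread out than Sham vehicle libraries, with a median standard deviation of 0.239 against 0.165 on the log2 CPM scale, and 66.5% of genes had the larger spread in UNX/DOCA vehicle. On the first principal component of the 8 libraries, which held 39.3% of the variance, UNX/DOCA vehicle replicates 1 to 4 lay at -6.17, 0.505, 65.8 and 31.5 and Sham vehicle replicates 1 to 4 at -36.5, -18.9, -30.5 and -5.79. Replicates 3 and 4 of UNX/DOCA vehicle therefore stood apart on that axis, and replicate 1 lay between the Sham vehicle libraries. Its mean correlation with the Sham vehicle libraries (0.984) was above its mean correlation with the other UNX/DOCA vehicle libraries (0.977). The same held by less for replicate 2 of UNX/DOCA vehicle (0.979 against 0.977). It did not hold for replicate 3 (0.961 against 0.971) or replicate 4 (0.976 against 0.982).

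Genes of the kidney tubule were read in some of these heart libraries and not in others, a pattern noticed after the data were seen. Kap, the androgen-regulated protein of the proximal tubule, had 858, 1123, 2101 and 1275 counts against 0, 1067, 2 and 1919, in the order of replicates 1 to 4 of UNX/DOCA vehicle against replicates 1 to 4 of Sham vehicle. Slc34a1, the phosphate transporter of the proximal tubule, had 134, 177, 349 and 225 counts against 0, 103, 0 and 143, and Umod, the uromodulin of the loop of Henle, had 76, 93, 140 and 49 counts against 0, 58, 0 and 151. All 4 UNX/DOCA vehicle libraries and Sham vehicle replicates 2 and 4 thus held these transcripts, and Sham vehicle replicates 1 and 3 were at or near 0. The liver gene Alb had at most 3 counts in any library. The 22 kidney genes looked at took 0.00932% to 0.0256% of the counts of a UNX/DOCA vehicle library and 0.000124% to 0.0198% of a Sham vehicle library. Apart from Sham vehicle replicate 4, the libraries had the same order in this share as on the first principal component. Sham vehicle replicate 4 had a share of 0.0198% and lay at -5.79. A link between the share and that axis was not tested. The median log2 fold change of the 22 kidney genes was 1.00, and 0.12 without Sham vehicle replicates 1 and 3. The mean level of these genes was then added as a covariate. It was itself higher on average in UNX/DOCA vehicle, so part of the group difference could not be separated from it. A change under it therefore cannot be assigned to the kidney transcripts. With this covariate edgeR again called 0 genes. The smallest adjusted p was then 0.182 against 0.0649, and genes with an unadjusted p below 0.05 numbered 1927 against 2699. The medians of the stretch, calcium cycling, non-fibrillar collagen and fibrillar collagen lists described here were 0.29, -0.16, 0.43 and 0.37. Some lists moved more, among them epicardial markers (0.39 to 0.06), lymphatic endothelial markers (0.34 to 0.09) and immediate early genes (-0.44 to 0.22). The source of the transcripts was not tested. The plot of kidney and neutrophil genes shows both sets in every library.

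**Figure D1:**
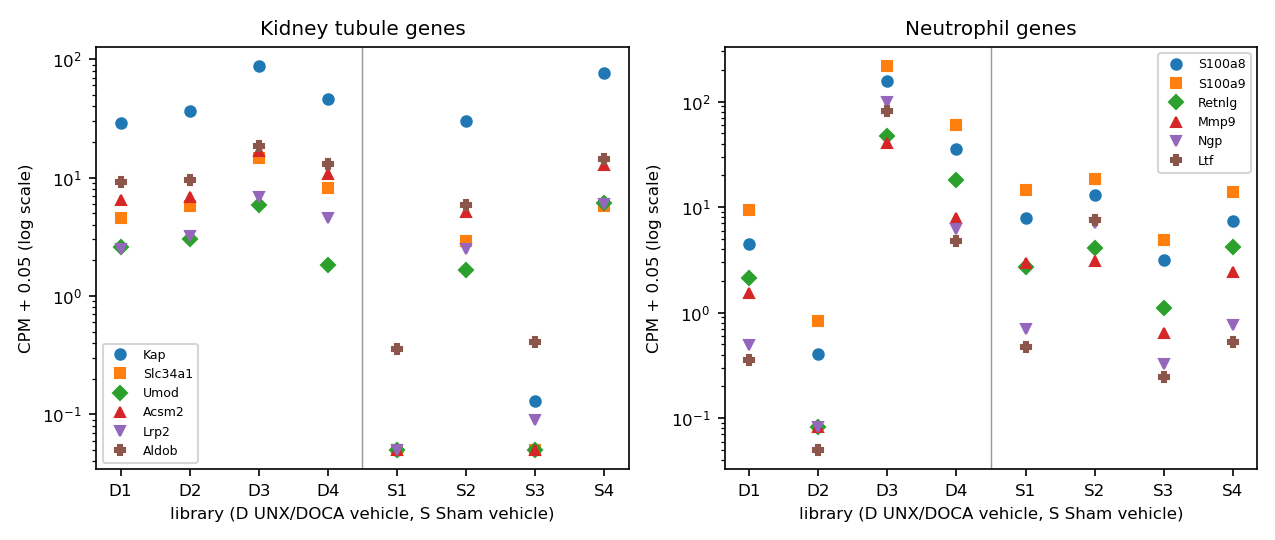
CPM plus 0.05 on a log axis for 6 kidney tubule genes (left) and 6 neutrophil genes (right) in UNX/DOCA vehicle replicates 1 to 4 (D1 to D4) and Sham vehicle replicates 1 to 4 (S1 to S4). The kidney genes are seen in 6 libraries and lie near the floor in S1 and S3, and the neutrophil genes are highest in D3 and lowest in D2.

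No single gene passed the test over all genes. Of 16981 genes tested with edgeR's quasi-likelihood test, 0 (0%) had an adjusted p below 0.05, and the smallest adjusted p was 0.0649. At an unadjusted p below 0.05 there were 1600 genes (9.42%) with a higher and 1099 (6.47%) with a lower mean in UNX/DOCA vehicle. The 4 values of UNX/DOCA vehicle all lay above the 4 values of Sham vehicle in 854 genes (5.03%) and all below in 741 (4.36%). Across all genes the median log2 fold change was 0.01 and 51.1% of genes were above 0, so these shares are the background for every list described here. DESeq2's Wald test called 404 of 15002 genes higher (2.69%) and 189 lower (1.26%) on the same 12 libraries. Limma-voom with sample weights called 356 of 16981 higher (2.1%) and 203 lower (1.2%). With UNX/DOCA vehicle replicate 1 left out, edgeR called 274 of 17250 genes higher (1.59%) and 106 lower (0.614%). Replicate 1 was the UNX/DOCA vehicle library most like Sham vehicle, so leaving it out favours calls. DESeq2 and limma-voom shared 425 calls, which is 71.7% of those of DESeq2 and 76.0% of those of limma-voom, and 239 genes were called by both and by edgeR without replicate 1. Below, a statement that a gene or list was higher or lower gives its measured values, and no gene is called by edgeR in the fit of all libraries. Counts of list members with an unadjusted p below 0.05 are to be read against 9.42% and 6.47%. Lists added after the data were seen were chosen with these values known. For them a share above that background is no support.

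**Figure D2:**
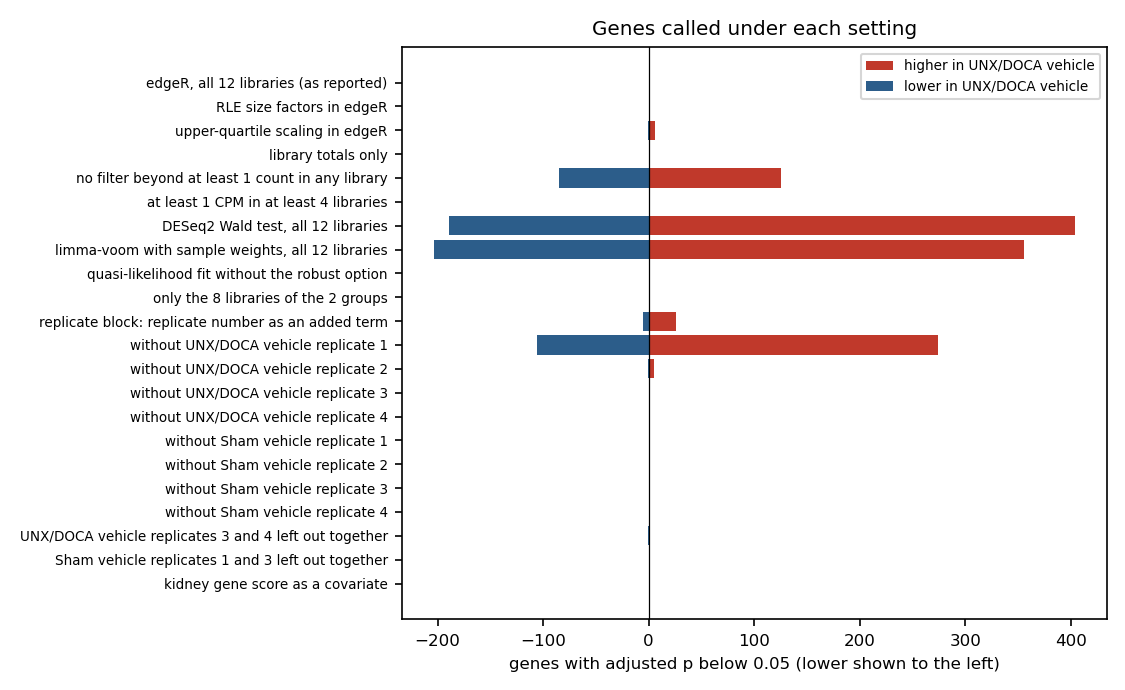
Number of genes with an adjusted p below 0.05 in UNX/DOCA vehicle against Sham vehicle, higher to the right and lower to the left, for the reported edgeR fit (top bar) and each other setting. The edgeR fit with all libraries has 0, DESeq2 has 404 higher and 189 lower, and leaving out UNX/DOCA vehicle replicate 1 gives 274 and 106.

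The genes with the smallest p were led by a transcription factor of tendon and matrix-making fibroblasts. Scx, which encodes scleraxis, had 8.47, 7.43, 6.86 and 10.1 CPM in UNX/DOCA vehicle replicates 1 to 4 and 3.16, 3.86, 3.996 and 4.205 CPM in Sham vehicle replicates 1 to 4. The groups did not overlap, and the means were 8.21 ± 1.41 CPM against 3.803 ± 0.455 CPM (SD, n = 4 and 4; log2 fold change 1.11 ± 0.17 SE, adjusted p = 0.0649, edgeR). Cysltr1, the receptor for cysteinyl leukotrienes, had 5.67, 7.11, 8.48 and 8.74 CPM against 2.74, 3.18, 2.097 and 2.36, in the same order of replicates as all such runs of values below. Each UNX/DOCA vehicle value of Cysltr1 was above every Sham vehicle value, with a ratio of means of 2.89 (log2 fold change 1.52 ± 0.23 SE, adjusted p = 0.0649, edgeR). Aqp8, a water channel, had 10.3, 9.24, 7.15 and 12.2 CPM against 1.75, 2.99, 4.63 and 2.96. Its spread within Sham vehicle was wide, yet the lowest UNX/DOCA vehicle library, replicate 3, was above the highest Sham vehicle library, replicate 3 (log2 fold change 1.66 ± 0.25 SE, adjusted p = 0.0649, edgeR). Uck2, a uridine-cytidine kinase of pyrimidine salvage, had 87.4, 83.3, 72.7 and 118 CPM against 37.6, 41.5, 38.5 and 48.6 (log2 fold change 1.12 ± 0.18 SE, adjusted p = 0.0649, edgeR). Its level in UNX/DOCA vehicle was 2.17 times that in Sham vehicle, with replicate 4 the highest. In whole tissue, more cells of a type and more RNA per cell cannot be told apart, for these genes and for every list below.

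Actin-binding and metabolic genes were among the other leading genes with a higher mean. Capg, which caps actin filaments, had 18.1, 15.7, 27.1 and 25.3 CPM against 9.504, 9.16, 10.4 and 10.01 (log2 fold change 1.14 ± 0.18 SE, adjusted p = 0.0649, edgeR), and Crip1, a small LIM-domain protein, had 56.6, 60.2, 68.2 and 62.03 CPM against 49.8, 43.2, 39.7 and 42.4 (log2 fold change 0.50 ± 0.08 SE, adjusted p = 0.0649, edgeR). For Capg the excess was larger in replicates 3 and 4, while Crip1 was nearly even over the UNX/DOCA vehicle libraries. Pfkp, the platelet form of the glycolytic enzyme phosphofructokinase, had 109.6, 98.8, 108 and 112 CPM against 54.4, 71.8, 67.9 and 77.4, so the 4 UNX/DOCA vehicle libraries lay close together above a wider Sham vehicle range. Plpp1, a phospholipid phosphatase, had 32.4 to 38.7 CPM against 20.8 to 24.8 (log2 fold change 0.62), and Prmt6, an arginine methyltransferase, had 4.24 to 5.65 CPM against 2.59 to 3.09 (0.75). Cavin3, a coat protein of caveolae, had 9.95 to 17.8 CPM against 7.15 to 8.47 (0.88), and Bex1, a small protein abundant in brain, had 2.77 to 4.93 CPM against 1.201 to 2.14 (1.20). The adjusted p of these 11 genes ran from 0.0649 to 0.0811 in edgeR.

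The gene with the smallest p among those lower was Itpr2, the inositol trisphosphate receptor that releases calcium from internal stores. Itpr2 had 25.1, 27.8, 24.1 and 29.8 CPM against 39.2, 41.3, 41.6 and 38.2, with no overlap and little spread in either group (log2 fold change -0.59 ± 0.09 SE, adjusted p = 0.0649, edgeR). Col6a6, a chain of type VI collagen, had 4.79, 5.79, 5.65 and 5.11 CPM against 11.02, 9.499, 8.94 and 10.1, so its level in UNX/DOCA vehicle was 0.540 times that in Sham vehicle (log2 fold change -0.89 ± 0.15 SE, adjusted p = 0.0786, edgeR). Mme, the membrane protease neprilysin that degrades natriuretic peptides, had 8.44, 10.4, 6.69 and 11.04 CPM against 19.4, 16.2, 12.7 and 18.3 (log2 fold change -0.86 ± 0.17 SE, adjusted p = 0.0954, edgeR). Its highest UNX/DOCA vehicle value, in replicate 4, was below the lowest Sham vehicle value, in replicate 3. Mylk3, the cardiac kinase of the myosin light chain, had 415, 433, 401 and 396 CPM against 591, 528, 554 and 510.02 (log2 fold change -0.41 ± 0.08 SE, adjusted p = 0.0954, edgeR). Abca6, a lipid-related ABC transporter, had 6.17, 4.14, 2.66 and 3.67 CPM against 8.52, 8.05, 8.47 and 8.21, with replicate 1 the nearest to the Sham vehicle libraries and replicate 3 the farthest (log2 fold change -0.99 ± 0.19 SE, adjusted p = 0.0899, edgeR). Akap5, which anchors protein kinase A, had 1.45, 1.07, 0.873 and 0.755 CPM against 3.57, 3.18, 2.22 and 2.08, at under 4 CPM throughout (log2 fold change -1.41 ± 0.28 SE, adjusted p = 0.0954, edgeR).

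Among the rest of the 12 lower genes were a kinase, a co-chaperone and a secreted protease. Wnk2, a kinase of ion transport control, had 33.8 to 43.8 CPM against 53.7 to 62.4 (log2 fold change -0.53). Dnajb5, a DnaJ co-chaperone, had 80.1 to 87.4 CPM against 112 to 154 (-0.62), and Htra1, a secreted serine protease, had 49.1 to 61.3 CPM against 65.3 to 74.7 (-0.37). Abhd8 had 16.997 to 19.7 CPM against 25.1 to 30.9 (-0.59) and Btbd11 had 1.55 to 2.06 CPM against 3.09 to 4.49 (-1.06). Hopxos, a transcript antisense to the homeobox gene Hopx, had 0.452 to 0.540 CPM against 1.12 to 1.8997 (-1.55). Because the strand setting of the counting is not given in the sources used here, reads of Hopxos cannot be told apart from those of Hopx. The adjusted p of these 12 genes ran from 0.0649 to 0.0954 in edgeR.

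**Figure D3:**
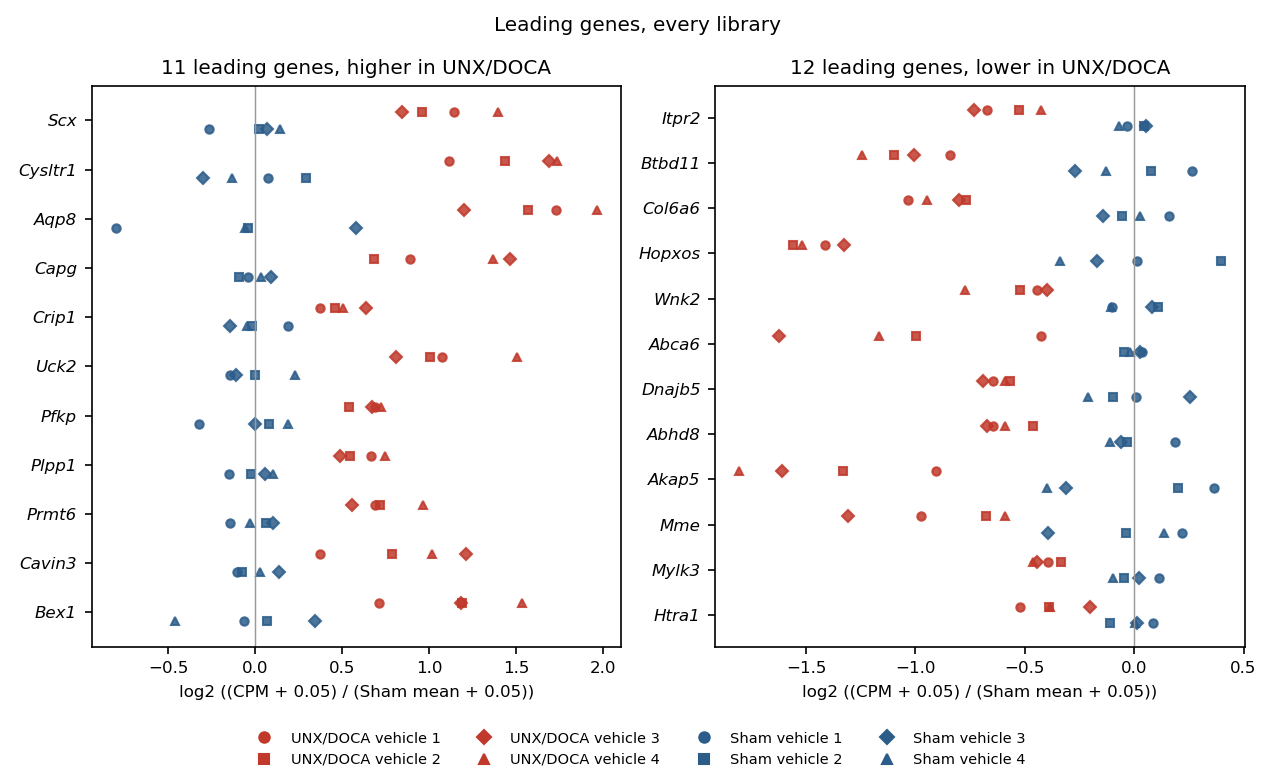
Leading genes by smallest p among those that have an approved symbol, at least 1 CPM and no overlap, 11 higher (left) and 12 lower (right) in UNX/DOCA vehicle, as log2 of CPM over the mean Sham vehicle CPM, 0.05 CPM added to both, with a symbol per library. In none of the 23 do the red UNX/DOCA vehicle points and the blue Sham vehicle points overlap, which the choice of the genes required.

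Natriuretic and stretch-responsive genes were mostly higher in UNX/DOCA vehicle. Of 17 measured, 15 were above 0, 8 had an unadjusted p below 0.05 and a higher mean, 0 a lower one, and the list's median log2 fold change was 0.30 against 0.01 over all genes. The median stayed at 0.30 without UNX/DOCA vehicle replicates 3 and 4. Nppa, the gene of the atrial natriuretic peptide, had 309.8, 222, 276 and 325 CPM against 77.8, 86.4, 148 and 143. All 4 UNX/DOCA vehicle libraries were above the Sham vehicle libraries, of which replicates 3 and 4 were the higher pair. Nppb, the gene of the brain natriuretic peptide, had 457, 168, 387 and 393 CPM against 395, 300.1, 625 and 260.3, with groups that overlapped and Sham vehicle replicate 3 the highest of all (log2 fold change -0.17 ± 0.34 SE, adjusted p = 0.844, edgeR). The sign of the Nppb difference turned when single libraries were left out, so no direction is given for it.

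Ankrd1, a nuclear and sarcomeric protein that responds to stretch, had 1123, 1267, 1439.7 and 1474 CPM against 632, 705, 1099.8 and 799. The lowest UNX/DOCA vehicle library, replicate 1, was just above the highest Sham vehicle library, replicate 3 (log2 fold change 0.71 ± 0.17 SE, adjusted p = 0.117, edgeR). Z-disc genes followed. Myot, the gene of myotilin, had 136, 106, 107 and 115 CPM against 78.8, 80.96, 86.8 and 72.3 (log2 fold change 0.54 ± 0.14 SE, adjusted p = 0.127, edgeR), and Flnc, a muscle filamin, had 556, 616, 747 and 681 CPM against 341, 362, 500.4 and 497 (log2 fold change 0.61 ± 0.16 SE, adjusted p = 0.127, edgeR). Neither Myot nor Flnc overlapped between the groups. Rcan1, an inhibitor of the phosphatase calcineurin that is also its target, had 255, 178, 168 and 334 CPM against 173, 114, 128 and 146 and overlapped at Sham vehicle replicate 1 (log2 fold change 0.74 ± 0.20 SE, adjusted p = 0.134, edgeR). Actn1, the alpha-actinin of cells other than striated muscle, had 21.4, 31.8, 51.9 and 45.1 CPM against 20.5, 21.1, 22.2 and 22.5, where UNX/DOCA vehicle replicate 1 was among the Sham vehicle values and the other three were above them (log2 fold change 0.80 ± 0.21 SE, adjusted p = 0.132, edgeR).

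Acta1, the skeletal alpha-actin made by the fetal and the loaded ventricle, had 2959.9, 1881, 2226 and 2774 CPM against 558, 976, 1516 and 1720.3. The groups did not overlap, but Sham vehicle replicate 1 was the lowest, and the difference was uncertain (log2 fold change 1.04 ± 0.43 SE, adjusted p = 0.281, edgeR). Actin genes resemble each other closely, so reads shared with other actins could move this value. To show what lies ahead of the stretch-responsive genes described here, the 250 bases before the transcript start of 3 of them follow, 5′ to 3′ on the coding strand, from RefSeq in the GRCm38.p6 build. Capitals mark motifs found by matching letters. The MCAT element (CATTCC or GGAATG), to which TEAD factors are known to bind, and the CArG box, known for serum response factor, were matched on both strands. The TATA box (TATAAA) was matched on the coding strand only.
Ankrd1 (chr19:36119845-36120094, minus strand): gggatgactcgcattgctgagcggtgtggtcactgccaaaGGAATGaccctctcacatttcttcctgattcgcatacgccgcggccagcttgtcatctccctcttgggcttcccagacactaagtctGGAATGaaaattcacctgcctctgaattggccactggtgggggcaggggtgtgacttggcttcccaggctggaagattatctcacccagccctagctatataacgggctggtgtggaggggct
Acta1 (chr8:123894776-123895025, minus strand): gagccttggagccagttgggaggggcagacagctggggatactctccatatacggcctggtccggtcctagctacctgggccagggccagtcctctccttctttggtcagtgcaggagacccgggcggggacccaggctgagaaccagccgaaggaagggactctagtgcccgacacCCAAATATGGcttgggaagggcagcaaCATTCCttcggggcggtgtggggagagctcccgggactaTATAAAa
Nppa (chr4:148000472-148000721, plus strand): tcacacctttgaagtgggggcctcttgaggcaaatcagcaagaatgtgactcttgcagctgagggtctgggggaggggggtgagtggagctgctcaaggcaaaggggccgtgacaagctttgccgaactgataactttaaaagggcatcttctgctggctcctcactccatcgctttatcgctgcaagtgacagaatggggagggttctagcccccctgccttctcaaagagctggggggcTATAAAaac
Counted from the annotated transcript start, the Ankrd1 window held MCAT letters at -210 and -123. The Acta1 window held a CArG box from -73 to -64, MCAT letters at -46 and TATAAA at -7. The Nppa window held TATAAA at -9 and neither of the other motifs, which says only that those letters are not in this window. Over the 11150 tested genes with a promoter in the table, 10.7% held MCAT letters, 1.17% a CArG box and 4.27% TATAAA. Among genes whose groups did not overlap, these shares were 11.8%, 1.72% and 5.32% for 583 higher genes and 12.1%, 0.585% and 2.73% for 513 lower genes. Of 14 natriuretic and stretch genes with a promoter in the table, 2 held MCAT letters, 1 a CArG box and 3 TATAAA. The windows printed here therefore do not stand for that list. A match describes letters and not a bound site.

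Sarcomere isoforms were centred near 0. Their median over 17 genes was -0.03, with 3 at an unadjusted p below 0.05 and higher and 0 lower, and its sign turned when Sham vehicle replicate 3 was left out. The 3 were Acta1, Mybpc2, a myosin-binding protein of fast muscle (42.9, 44.7, 56.9 and 59.2 CPM against 31.2, 31.3, 31.8 and 39.5), and Tpm2. Myh7, the slow beta myosin heavy chain of the loaded rodent heart, had 440.2, 309, 349 and 353 CPM against 261, 204, 344 and 281, with overlap (log2 fold change 0.41 ± 0.22 SE, adjusted p = 0.377, edgeR). Myh6, the alpha chain that dominates the adult mouse ventricle, had 18026, 19487, 25234 and 20789 CPM against 25188, 19568, 27691 and 25268, also with overlap (log2 fold change -0.23 ± 0.11 SE, adjusted p = 0.341, edgeR). The titin gene Ttn had 5312, 6165, 3021 and 5567 CPM against 6055, 6170.5, 6645 and 6391, with UNX/DOCA vehicle replicate 3 the lowest and the other seven close together.

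Genes that build and bind actin filaments were higher in UNX/DOCA vehicle across several families, which were looked up as families after single members had been seen. Of 4 tropomyosins, 3 had an unadjusted p below 0.05 and a higher mean. Tpm2, the beta form, had 22.5, 22.6, 26.7 and 16.2 CPM against 11.3, 10.6, 12.7 and 12.7 (log2 fold change 0.90 ± 0.18 SE, adjusted p = 0.0954, edgeR). Tpm4, a form of non-muscle cells, had 123, 143, 166 and 179.95 CPM against 84.5, 91.8, 95.4 and 98.6 (log2 fold change 0.73 ± 0.15 SE, adjusted p = 0.0954, edgeR), and Tpm3 had 30.2, 35.4, 54.9 and 43.5 CPM against 25.2, 27.4, 26.5 and 27.3 (log2 fold change 0.62 ± 0.16 SE, adjusted p = 0.127, edgeR). None of the 3 overlapped between groups, while Tpm1, the main cardiac form, had 7783, 8651, 7537 and 8341 CPM against 8403, 8479.6, 8882 and 8471 with overlap (-0.08). For the Arp2/3 complex, which starts branched actin filaments, 5 of 9 subunits had an unadjusted p below 0.05 and a higher mean, and the list's median was 0.24 (0.16 without UNX/DOCA vehicle replicates 3 and 4). Arpc1b had 55.7, 70.7, 102 and 88.8 CPM against 39.1, 40.7, 39.7 and 43.1, with UNX/DOCA vehicle replicate 3 the highest and replicate 1 the nearest to Sham vehicle (log2 fold change 0.96 ± 0.17 SE, adjusted p = 0.0813, edgeR). Arpc5 had 36.1 to 51.1 CPM against 28.4 to 31.4 (0.48) and Arpc3 had 48.4 to 66.6 CPM against 39.2 to 43.7 (0.45). Filamins and alpha-actinins, among them Flnc and Actn1 given above, had 5 of 6 genes at that p and higher. Their median was 0.57 (0.29 without replicates 3 and 4).

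Genes of calcium-binding annexins and S100A proteins had mostly higher means in UNX/DOCA vehicle. Both families were added as lists after the data were seen. Of 10 annexins, which bind membranes when calcium is present, 6 had an unadjusted p below 0.05 and a higher mean, and their median was 0.31. Anxa2 had 97.1, 123, 145 and 144 CPM against 70.8, 76.8, 69.8 and 67.2 (log2 fold change 0.84 ± 0.17 SE, adjusted p = 0.0954, edgeR), and Anxa7 had 80.3, 85.6, 103 and 102 CPM against 71.2, 68.8, 77.1 and 72.4 (log2 fold change 0.36 ± 0.08 SE, adjusted p = 0.100, edgeR). Neither overlapped. Anxa3 had 27.1 to 51.2 CPM against 23.7 to 29.3 (0.73) and Anxa1 had 30.5 to 83.1 CPM against 23.6 to 27.7 (0.90). All 8 measured S100A genes were above 0, and 5 had an unadjusted p below 0.05. They include S100a8 and S100a9, neutrophil genes whose sign turned without UNX/DOCA vehicle replicates 3 and 4 and whose values are given with the neutrophil genes below. S100a16 had 33.2, 35.6, 33.4 and 35.6 CPM against 24.98, 25.4, 26.2 and 27.1, the most even of them (log2 fold change 0.41 ± 0.08 SE, adjusted p = 0.0841, edgeR). S100a6 had 24.02, 22.5, 41.5 and 27.7 CPM against 15.97, 15.5, 15.2 and 16.98 (log2 fold change 0.86 ± 0.16 SE, adjusted p = 0.0841, edgeR), with replicate 3 of UNX/DOCA vehicle the highest. S100a11 had 29.6 to 48.9 CPM against 20.5 to 22.6 (0.81), and S100a10, the partner of Anxa2, had 30.6 to 47.4 CPM against 24.7 to 32.4 (0.59). The medians of both families were lower without UNX/DOCA vehicle replicates 3 and 4, at 0.20 for annexins and 0.36 for S100A genes.

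Calcium cycling and ion channel genes of cardiomyocytes were mostly lower in UNX/DOCA vehicle. Of 20 calcium cycling genes, 16 were below 0, 10 had an unadjusted p below 0.05 and a lower mean and 1 a higher one, and the median was -0.15. It lay between -0.19 and -0.12 under the 21 other settings. Atp2a2, which encodes the pump that returns calcium to the sarcoplasmic reticulum, had 11176, 11903, 11125 and 11446 CPM against 14368, 12399, 14621 and 13978. Every UNX/DOCA vehicle value was below every Sham vehicle value, the nearest being replicate 2 of each group. Ryr2, the release channel, had 1568, 1739, 1122 and 1504 CPM against 1842, 1948, 1860.4 and 2117, with replicate 3 of UNX/DOCA vehicle the lowest, and Cacnb2, a subunit of the L-type calcium channel, had 58.6, 58.95, 52.3 and 47.7 CPM against 75.8, 67.5, 66.1 and 79.9. The ratio of means was 0.824 for Atp2a2, 0.764 for Ryr2, 0.752 for Cacnb2 and 0.666 for Itpr2. Fkbp1b, which steadies the release channel, was the gene with a higher mean at that p, at under 1 CPM in each library (0.506, 0.517, 0.665 and 0.827 CPM against 0.266, 0.251, 0.158 and 0.521).

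Of 27 cardiac ion channel genes, 21 were below 0 and 9 had an unadjusted p below 0.05 and a lower mean, against 1 with a higher one. The median was -0.21, and -0.28 without UNX/DOCA vehicle replicates 3 and 4. Kcnj3, a subunit of the potassium channel gated by acetylcholine, had 34.4, 42.2, 32.7 and 31.6 CPM against 56.7, 52.1, 54.7 and 57.4. Abcc9, the sulfonylurea receptor of the cardiac channel closed by ATP, had 321, 331, 241 and 331 CPM against 462, 425, 436 and 461. In both genes the groups were far apart for their spread, and replicate 3 of UNX/DOCA vehicle was well under the other three for Abcc9. Kcnv2, a silent subunit that modifies voltage-gated potassium channels, had 10.2, 11.02, 6.36 and 8.16 CPM against 16.7, 13.9, 17.5 and 16.4 (log2 fold change -0.85 ± 0.24 SE, adjusted p = 0.141, edgeR). Hcn4, the pacemaker channel, had 6.65, 5.66, 3.95 and 5.65 CPM against 13.8, 8.58, 10.05 and 12.1 and the lowest of these ratios, at 0.492 (log2 fold change -1.02 ± 0.30 SE, adjusted p = 0.155, edgeR). Abcc9 also belongs to the ABC transporters, a list added after the data were seen. Of these, 28 of 33 were below 0 and 8 had an unadjusted p below 0.05 and a lower mean, against 0 higher. Their median was -0.17.

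Receptor and G protein genes of the heart were more often lower, with 7 of 28 at an unadjusted p below 0.05 and lower, 3 higher, and a median of -0.19. Adcy5 and Adcy6, the main adenylyl cyclases of cardiomyocytes, had 115, 124, 108 and 100.1 CPM against 145, 133, 149 and 141 and 171, 221, 169 and 169 CPM against 241, 249.4, 228 and 210.4 in turn. Adcy5 did not overlap, and Adcy6 overlapped at UNX/DOCA vehicle replicate 2. Rgs2, which shortens signals of Gq-coupled receptors, had 28.04, 37.7, 42.6 and 32.1 CPM against 22.6, 24.4, 26.98 and 24.3 without overlap (log2 fold change 0.51 ± 0.15 SE, adjusted p = 0.151, edgeR). Agt, the gene of angiotensinogen, had 5.36, 8.37, 6.61 and 8.95 CPM against 3.23, 3.63, 6.57 and 3.16, where Sham vehicle replicate 3 lay with the UNX/DOCA vehicle libraries (log2 fold change 0.82 ± 0.26 SE, adjusted p = 0.171, edgeR).

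**Figure D4:**
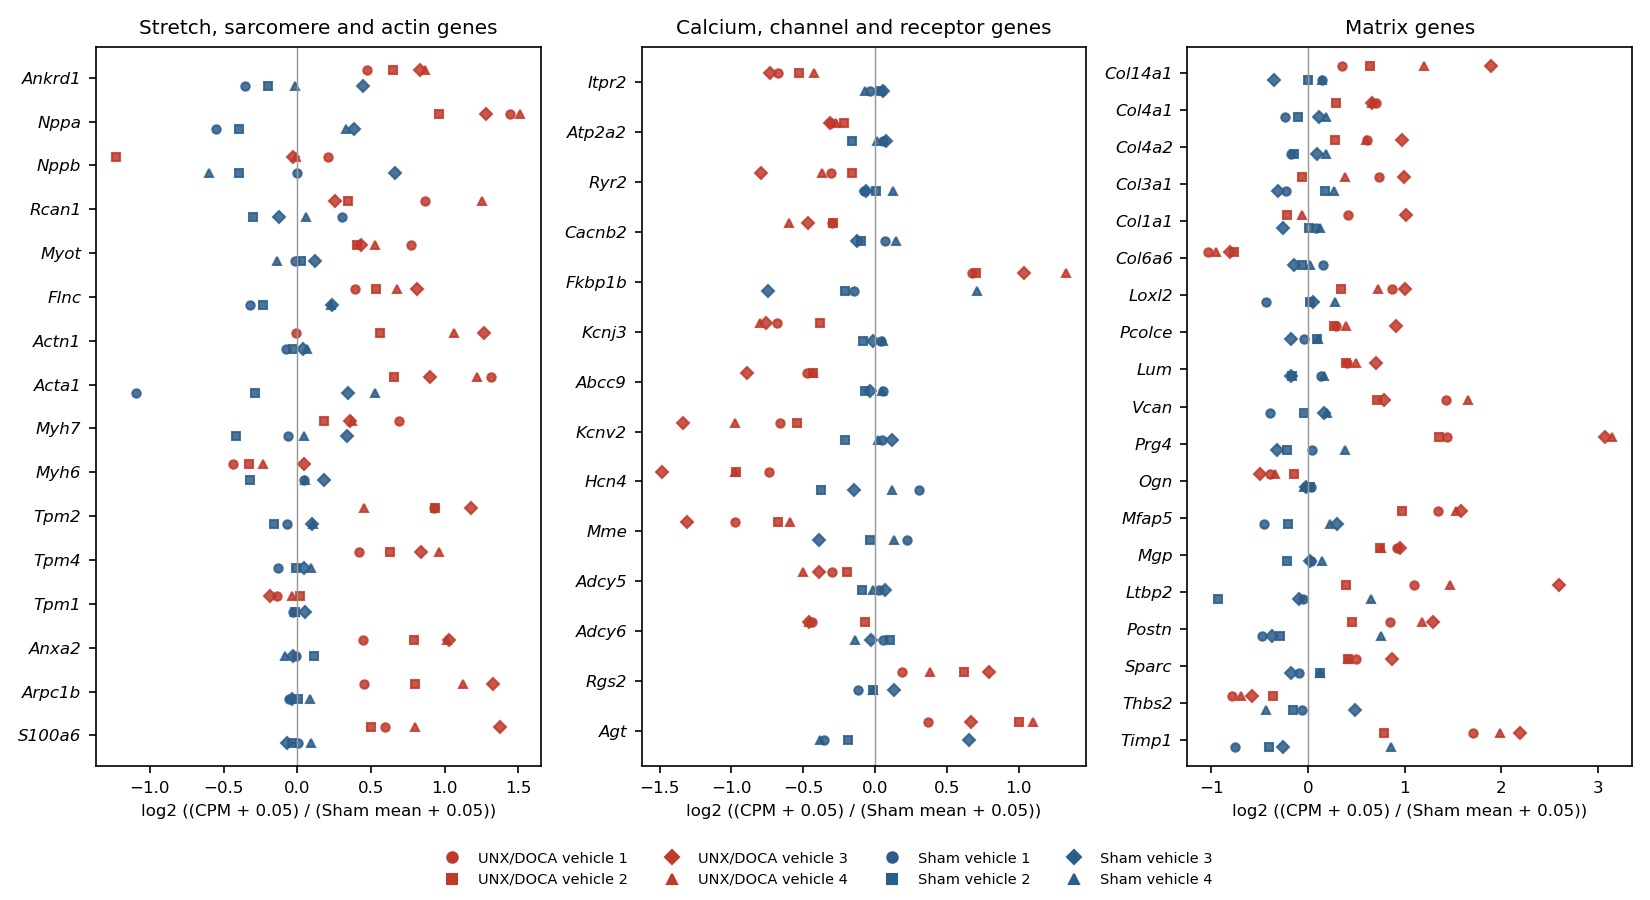
Stretch, sarcomere and actin genes (left), calcium, channel and receptor genes (middle) and matrix genes (right) as log2 of CPM over the mean Sham vehicle CPM, 0.05 CPM added to both, with a symbol per library. Ankrd1, Nppa and Tpm4 have all red points to the right of the blue ones, Atp2a2, Ryr2 and Kcnj3 have them to the left, and Nppb, Myh7 and Col1a1 overlap.

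Matrix genes had mostly higher means in UNX/DOCA vehicle, and in most lists replicate 3 was the highest library. Fibrillar collagens, the main load-bearing chains, had 2 of 6 genes at an unadjusted p below 0.05 and higher, and a median of 0.32 that was 0.06 without UNX/DOCA vehicle replicate 3. Col1a1 had 80.3, 51.8, 121 and 57.7 CPM against 63.6, 60.8, 50.2 and 65.8 and Col3a1 had 263, 151, 315 and 207 CPM against 135, 179, 127 and 191. Both overlapped between groups at UNX/DOCA vehicle replicate 2, and Col1a1 also at replicate 4 (log2 fold change 0.37 ± 0.26 SE, adjusted p = 0.523 for Col1a1 and log2 fold change 0.56 ± 0.22 SE, adjusted p = 0.253 for Col3a1, edgeR). Col5a2, the second member at that p, had 32.6 to 47.4 CPM against 26.3 to 34.04 (0.51).

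Collagens outside the fibrillar class had 10 of 18 at an unadjusted p below 0.05 and higher, 1 lower, and a median of 0.48 (0.37 without replicates 3 and 4, 0.29 without replicate 3). The basement membrane chains Col4a1 and Col4a2, which are neighbours on a shared promoter, had 571, 429, 557 and 554 CPM against 298, 326, 379 and 399 and 388, 309, 499 and 386 CPM against 226, 231, 272 and 289.7 in turn. Neither overlapped (log2 fold change 0.59 ± 0.16 SE, adjusted p = 0.133 and log2 fold change 0.64 ± 0.16 SE, adjusted p = 0.118, edgeR). Col14a1, which lines collagen fibrils, had 11.8, 14.4, 34.5 and 21.4 CPM against 10.2, 9.28, 7.24 and 10.2, with replicate 3 of UNX/DOCA vehicle the highest and replicate 1 little above Sham vehicle (log2 fold change 1.15 ± 0.28 SE, adjusted p = 0.117, edgeR). Col16a1 had 6.38 to 13.3 CPM against 4.31 to 5.97 (0.83). The member with a lower mean at that p was Col6a6, whose values are given above.

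Enzymes that process and crosslink collagen had 7 of 24 at an unadjusted p below 0.05 and higher, 1 lower, and a median of 0.25, which was 0.04 without UNX/DOCA vehicle replicates 3 and 4. Loxl2, a lysyl oxidase that crosslinks collagen, had 28.8, 19.9, 31.7 and 26.0005 CPM against 11.6, 15.95, 16.3 and 19.1 (log2 fold change 0.76 ± 0.18 SE, adjusted p = 0.108, edgeR). Pcolce, which speeds the cutting of procollagen, had 46.3, 45.7, 71.1 and 49.6 CPM against 36.7, 40.5, 33.5 and 40.6 (log2 fold change 0.49 ± 0.13 SE, adjusted p = 0.133, edgeR). P3h2, a prolyl hydroxylase, had 3.91 to 6.44 CPM against 3.27 to 3.84 (0.61), and Plod3, a lysyl hydroxylase, had 29.9 to 52.7 CPM against 25.99 to 31.9 (0.44). Loxl2, Pcolce and P3h2 did not overlap between groups. The lower member, named here after its values were seen, was Adamts3, a procollagen protease, at 1.496 to 4.396 CPM against 3.41 to 5.97 with overlap (-0.64).

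Proteoglycans and hyaluronan genes had 7 of 19 at an unadjusted p below 0.05 and higher, and 1 lower. The median was 0.44, and 0.04 without UNX/DOCA vehicle replicates 3 and 4. Vcan, the large hyaluronan-binding versican, had 59.5, 36.2, 38.2 and 69.5 CPM against 16.8, 21.4, 24.7 and 25.3, with replicates 1 and 4 the highest, so its excess did not follow replicates 3 and 4 (log2 fold change 1.21 ± 0.27 SE, adjusted p = 0.0998, edgeR). Lum, the fibril-spacing lumican, had 72.7, 72.3, 89.5 and 77.7 CPM against 60.3, 48.9, 48.7 and 61.4 (log2 fold change 0.51 ± 0.11 SE, adjusted p = 0.0998, edgeR). Prg4, the lubricant lubricin, had 21.1, 19.9, 65.6 and 68.7 CPM against 7.95, 6.65, 6.21 and 10.1 and one of the largest ratios of all, at 5.67, carried by replicates 3 and 4 (log2 fold change 2.50 ± 0.63 SE, adjusted p = 0.127, edgeR). Cd44, the hyaluronan receptor, had 7.79 to 21.3 CPM against 5.104 to 8.097 with overlap (0.94). Ogn, a small leucine-rich proteoglycan, was the lower member at that p, at 90.8, 107, 84.6 and 93.97 CPM against 122, 121, 117 and 116, with no overlap (log2 fold change -0.34 ± 0.09 SE, adjusted p = 0.138, edgeR).

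Elastic fibre and microfibril genes had 8 of 18 at an unadjusted p below 0.05 and higher, 0 lower, and a median of 0.34 (0.21 without replicates 3 and 4, 0.17 without replicate 3). Mfap5, a microfibril glycoprotein, had 35.4, 27.2, 41.7 and 40.03 CPM against 10.1, 11.99, 17.1 and 16.2, 2.61 times higher in UNX/DOCA vehicle and clear of Sham vehicle in all 4 libraries (log2 fold change 1.38 ± 0.27 SE, adjusted p = 0.0954, edgeR). Mgp, which keeps soft tissue from calcifying, had 131, 116, 133 and 116 CPM against 70.1, 58.9, 69.9 and 75.8 (log2 fold change 0.85 ± 0.21 SE, adjusted p = 0.123, edgeR). Ltbp2, a fibrillin-binding protein, had 7.56, 4.62, 21.4 and 9.78 CPM against 3.38, 1.82, 3.28 and 5.53, with overlap at UNX/DOCA vehicle replicate 2 (log2 fold change 1.64 ± 0.49 SE, adjusted p = 0.163, edgeR). Mfap5 and Mgp showed little order among the UNX/DOCA vehicle libraries, unlike Ltbp2.

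Matricellular proteins, which signal to cells without bearing load, had 8 of 20 at that p and higher, 1 lower, and a median of 0.37 (0.03 without replicates 3 and 4). Sparc had 441, 415, 569.8 and 416 CPM against 291, 339, 276 and 339.7 and Smoc2 had 65.7, 75.6, 78.2 and 72.5 CPM against 63.7, 56.9, 59.6 and 59.7, both without overlap. Postn, the periostin of activated fibroblasts, had 69.8, 53.1, 94.8 and 88.1 CPM against 27.9, 31.7, 29.9 and 65.4, and Sham vehicle replicate 4 lay within the UNX/DOCA vehicle range and far above the other Sham vehicle libraries (log2 fold change 0.98 ± 0.31 SE, adjusted p = 0.183, edgeR). Thbs4 had 10.3 to 14.04 CPM against 6.23 to 9.34 (0.65), while Thbs2, another thrombospondin, was lower, at 12.96 to 17.5 CPM against 16.5 to 31.3 (-0.60). Fn1, the gene of fibronectin, had 41.7, 43.5, 103 and 61.4 CPM against 43.8, 42.3, 39.4 and 52.3, so only replicates 3 and 4 of UNX/DOCA vehicle were above Sham vehicle (log2 fold change 0.49 ± 0.25 SE, adjusted p = 0.369, edgeR).

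Proteases and their inhibitors had 7 of 22 at an unadjusted p below 0.05 and higher and 0 lower, with a median of 0.39 (0.16 without replicates 3 and 4). Timp1, an inhibitor of matrix metalloproteinases, had 8.64, 4.52, 12.1 and 10.5 CPM against 1.52, 1.96, 2.18 and 4.77 and overlapped at UNX/DOCA vehicle replicate 2 (log2 fold change 1.78 ± 0.44 SE, adjusted p = 0.120, edgeR). Serpine2 and Plat, an inhibitor and an activator of plasmin formation, had 32.3 to 63.7 CPM against 24.98 to 36.7 (0.74) and 15.1 to 28.4 CPM against 12.2 to 15.7 (0.65) in turn. Among tendon and skeletogenic genes besides Scx, Frzb and Dkk3, both secreted modulators of Wnt signals, had 8.94, 7.56, 9.68 and 7.77 CPM against 3.95, 4.27, 4.31 and 6.45 and 3.58, 4.59, 8.89 and 5.36 CPM against 2.47, 1.76, 1.82 and 3.56. Neither overlapped, and 6 of 14 measured genes of that list had an unadjusted p below 0.05 and a higher mean (median 0.57, and 0.23 without UNX/DOCA vehicle replicate 3). Markers of activated fibroblasts had 7 of 14 higher at that p and a median of 0.66 (0.44 without replicates 3 and 4).

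**Figure D5:**
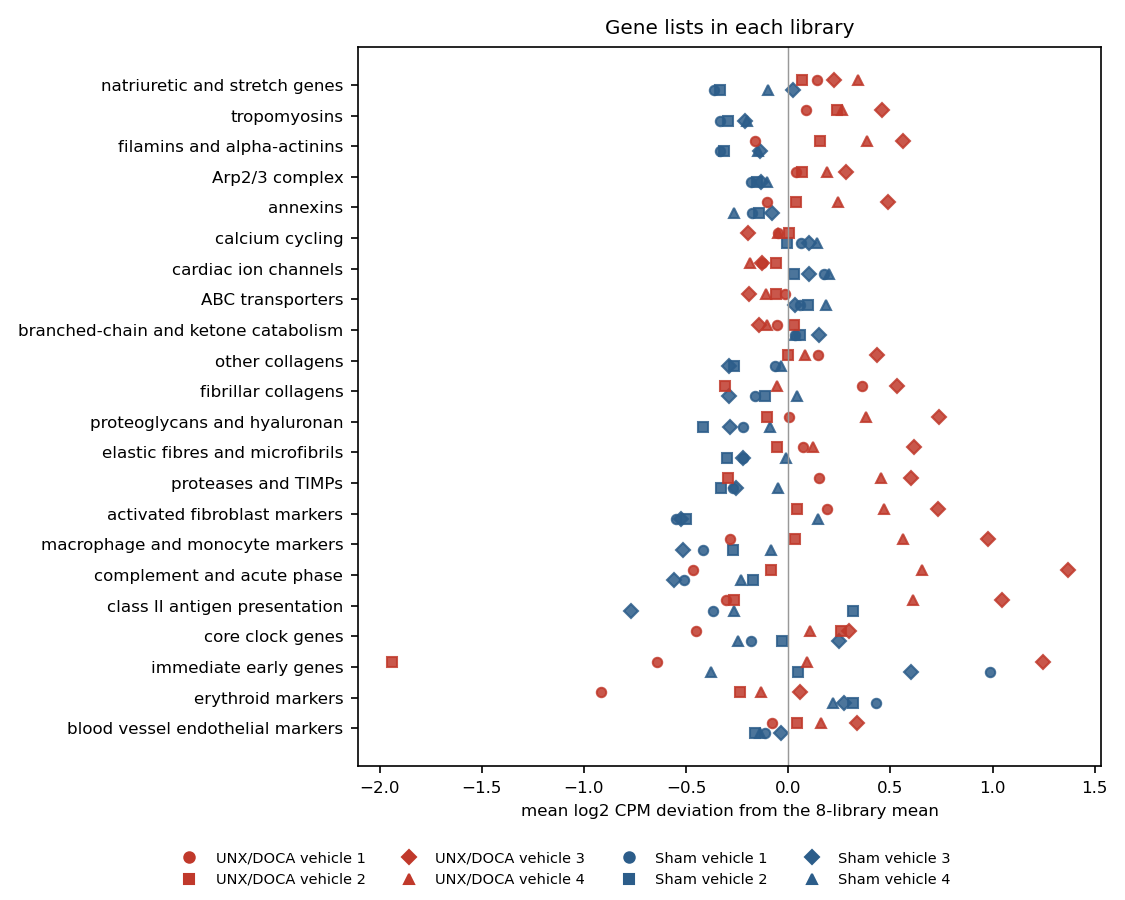
Mean deviation of log2 CPM from the mean of the 8 libraries, averaged over the measured genes of each of 22 lists, with a symbol per library. For tropomyosins and the Arp2/3 complex all UNX/DOCA vehicle points lie to the right of the Sham vehicle points, for cardiac ion channels and ABC transporters to the left, and for macrophage markers replicate 1 of UNX/DOCA vehicle lies among the Sham vehicle points.

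Growth factor and TGF-beta genes had 7 of 29 at an unadjusted p below 0.05 and higher and 0 lower, but a small median of 0.18 (0.02 without replicates 3 and 4). Of the ligands, Fgf2 had 6.78, 8.14, 13.96 and 14.6 CPM against 6.27, 6.23, 5.46 and 6.09 without overlap (log2 fold change 0.85 ± 0.22 SE, adjusted p = 0.122, edgeR), and Inhba, a chain of activin, had 5.23, 5.33, 5.73 and 3.63 CPM against 2.17, 1.8997, 3.17 and 3.604, just clear of Sham vehicle (log2 fold change 0.89 ± 0.27 SE, adjusted p = 0.159, edgeR). Tgfb1 had 21.5 to 40.3 CPM against 18.8 to 21.8 (0.50) and Gdf15, a stress-induced ligand, had 2.78 to 5.86 CPM against 1.503 to 3.16 (1.01). The receptor gene Tgfbr2 had 70.6, 95.6, 113 and 128 CPM against 76.3, 74.9, 68.3 and 76.8, where replicate 1 of UNX/DOCA vehicle lay within Sham vehicle and the other three above it.

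Corticoid receptors and their targets gave a mixed picture. Nr3c2, the mineralocorticoid receptor, had 19.4, 15.3, 12.2 and 13.7 CPM against 23.4, 16.2, 26.7 and 21.7 (log2 fold change -0.54 ± 0.20 SE, adjusted p = 0.236, edgeR), and Nr3c1, the glucocorticoid receptor, had 68.4, 55.8, 46.6 and 51.03 CPM against 86.4, 74.6, 56.6 and 80.8 (log2 fold change -0.43 ± 0.16 SE, adjusted p = 0.219, edgeR). Both means were lower in UNX/DOCA vehicle, with overlap. Among the targets Sgk1, the kinase that raises sodium uptake, had 236, 90.1, 272 and 249.8 CPM against 179, 174, 209 and 184, with UNX/DOCA vehicle replicate 2 far below all others (log2 fold change 0.19 ± 0.50 SE, adjusted p = 0.886, edgeR). Fkbp5, a co-chaperone of the receptors, had 39.9, 133, 126 and 151 CPM against 25.4, 35.6, 151 and 20.9, where Sham vehicle replicate 3 matched the high UNX/DOCA vehicle libraries and UNX/DOCA vehicle replicate 1 lay near the low Sham vehicle libraries (log2 fold change 0.95 ± 0.66 SE, adjusted p = 0.517, edgeR). Per1, a clock gene that steroids also induce, had 64.9, 61.3, 133 and 88.5 CPM against 54.4, 54.8, 109.9 and 69.9 (log2 fold change 0.27 ± 0.30 SE, adjusted p = 0.700, edgeR). The metallothioneins Mt1 and Mt2 had 174, 372, 423 and 481 CPM against 80.9, 96.998, 221 and 109 and 0.472, 1.75, 3.37 and 3.06 CPM against 0.114, 0.0279, 0.950 and 0.0801 in turn, again with Sham vehicle replicate 3 the highest of its group.

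Secreted genes in the same list were further apart. Lcn2 is also counted among the complement and acute phase genes and Angptl4 among the fatty acid genes described below. The part of corticoids in their values was not tested. Angptl4, an inhibitor of lipoprotein lipase, had 12.6, 15.4, 16.4 and 35.5 CPM against 2.51, 1.98, 6.53 and 6.09 without overlap, a ratio of 4.67 (log2 fold change 2.24 ± 0.59 SE, adjusted p = 0.133, edgeR). Serpina3n, a secreted protease inhibitor, had 61.2, 93.8, 309 and 209.8 CPM against 32.96, 33.9, 34.3 and 52.2, also without overlap and with replicate 3 highest (log2 fold change 2.14 ± 0.57 SE, adjusted p = 0.136, edgeR). Lcn2, an iron-siderophore carrier, had 6.98, 11.9, 81.6 and 30.999 CPM against 2.43, 5.699, 7.32 and 4.73, with overlap at replicate 1 (log2 fold change 2.696 ± 0.79 SE, adjusted p = 0.161, edgeR). Over the 21 genes measured, 5 had an unadjusted p below 0.05 and a higher and 2 a lower mean. The median was 0.37, and 0.01 without UNX/DOCA vehicle replicates 3 and 4. Core clock genes, which depend on the hour of collection, had 0 of 17 higher and 0 lower at that p. Their mean log2 CPM deviations were -0.45, 0.26, 0.30 and 0.11 against -0.18, -0.03, 0.25 and -0.24. As for Fkbp5, UNX/DOCA vehicle replicate 1 was the lowest and Sham vehicle replicate 3 the highest of its group. A link to the hour of collection was not tested. Immediate early genes had 18 of 21 below 0, with 0 lower and 1 higher at that p. The higher one was Nr4a3, a nuclear receptor, at 28.8, 225, 192 and 211 CPM against 12.2, 18.7, 29.2 and 74.004 with overlap. The list's median was -0.44, which turned to 0.22 without Sham vehicle replicates 1 and 3 and was -1.17 without UNX/DOCA vehicle replicate 3 and -1.49 without its replicates 3 and 4.

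Metabolic lists had small medians, while some of their single genes differed by more between the groups. Glucose use had 3 higher and 3 lower of 22 at an unadjusted p below 0.05. Beside Pfkp, the glycolytic genes Aldoa and Eno1 had a higher mean (3.27 to 6.03 CPM against 2.51 to 3.12 and 92.01 to 136 CPM against 80.6 to 90.3), values that are uncertain because near-identical copies may share their reads. Pfkfb1, which makes the activator of phosphofructokinase, had 5.03, 7.18, 3.82 and 4.89 CPM against 9.24, 10.4, 18.2 and 7.93, with no overlap and a ratio of 0.457 (log2 fold change -1.12 ± 0.27 SE, adjusted p = 0.108, edgeR). Pdp2, the phosphatase that turns pyruvate dehydrogenase on, had 13.3 to 20.6 CPM against 20.5 to 23.5 (-0.45). Branched-chain amino acid and ketone genes were lower as a group: 19 of 22 were below 0 and 8 had an unadjusted p below 0.05 and a lower mean, with a median of -0.16 (-0.08 without UNX/DOCA vehicle replicates 3 and 4). Ppm1k, the phosphatase that activates branched-chain ketoacid dehydrogenase, had 84.8, 86.9, 58.3 and 71.4 CPM against 108, 113, 111 and 109 without overlap (log2 fold change -0.55 ± 0.14 SE, adjusted p = 0.126, edgeR). Its substrate's subunits Dbt and Bckdhb had 44.8 to 65.2 CPM against 64.9 to 76.8 (-0.32) and 42.004 to 46.2 CPM against 48.98 to 56.99 (-0.26), and Pcca, of propionate breakdown, had 67.7 to 71.3 CPM against 75.7 to 85.7 (-0.20). Bdh1, which oxidises the ketone body hydroxybutyrate, was the gene with a higher mean at that p, with 216, 183, 222 and 218 CPM against 145, 168, 139 and 181 and no overlap (log2 fold change 0.41 ± 0.13 SE, adjusted p = 0.182, edgeR).

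Fatty acid oxidation genes as a set stayed near the background, with a median of 0.02, but 6 of 27 had an unadjusted p below 0.05 and a higher mean. Ucp2, a mitochondrial carrier, had 87.8, 107, 174 and 159 CPM against 52.4, 51.1, 103 and 53.5 and overlapped at Sham vehicle replicate 3. Fabp4, a fatty acid carrier of adipocytes and capillaries, had 98.8, 109, 123 and 137 CPM against 68.8, 82.6, 84.8 and 67.6 without overlap. Ppargc1a, the coactivator of mitochondrial genes, had 70.4, 396, 132 and 437 CPM against 91.2, 83.3, 119.6 and 85.2, with replicates 2 and 4 of UNX/DOCA vehicle far above all others and replicate 1 below every Sham vehicle library (log2 fold change 1.45 ± 0.53 SE, adjusted p = 0.229, edgeR). Pparg, a lipid-sensing receptor, had 17.4, 26.7, 35.5 and 29.6 CPM against 12.1, 12.7, 14.2 and 12.1 without overlap (log2 fold change 1.10 ± 0.23 SE, adjusted p = 0.0954, edgeR). For nuclear genes of the respiratory chain, 24 of 27 were below 0 with a median of -0.07, and 2 had an unadjusted p below 0.05, Sdha (1139.9 to 1257 CPM against 1284 to 1443) and Ndufs1 (450.2 to 586 CPM against 580.5 to 639.9). Stress genes had 6 of 21 higher at that p. Asns, the asparagine synthetase of the amino acid response, had 9.55, 11.1, 13.9 and 14.96 CPM against 8.29, 8.44, 7.56 and 8.45 (log2 fold change 0.59 ± 0.13 SE, adjusted p = 0.0998, edgeR), and its activator Atf4 had 79.7 to 108 CPM against 69.2 to 85.9 (0.31). Gpx3, a secreted peroxidase, had 221 to 327 CPM against 167 to 226 (0.50), and Nox4, which makes hydrogen peroxide, had 1.45 to 2.19 CPM against 0.798 to 1.48 (0.69).

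Macrophage and monocyte genes were highest in UNX/DOCA vehicle replicates 3 and 4. All 21 macrophage and monocyte markers were above 0, 10 with an unadjusted p below 0.05, and the median was 0.64, but 0.09 without replicates 3 and 4. Their summed level ran from 365 to 869 CPM in UNX/DOCA vehicle and from 352 to 423 in Sham vehicle, and every marker overlapped between the groups. C1qb, a complement chain made by macrophages, had 32.7, 48.2, 101 and 71.7 CPM against 33.3, 36.7, 26.2 and 33.2. Of 19 complement and acute phase genes, 9 had an unadjusted p below 0.05 and a higher and 1 a lower mean. The median of that list was 0.76, and 0.03 without replicates 3 and 4. Lbp, which presents bacterial lipid to its receptor and is not among the macrophage markers, had 3.71, 7.37, 28.6 and 12.01 CPM against 3.84, 2.91, 2.73 and 3.08. Replicate 3 was the highest for C1qb and Lbp, and replicate 1 lay within Sham vehicle. The part of macrophages and monocytes in the matrix and actin results above was not tested.

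Of 24 cytokine and chemokine genes, 7 had an unadjusted p below 0.05 and a higher and 2 a lower mean, and the median of 0.46 turned to -0.12 without replicates 3 and 4. Ccl6 and Ccl9, chemokines of myeloid cells, had 27.1, 29.02, 47.5 and 38.2 CPM against 13.2, 18.2, 21.7 and 18.4 and 16.9, 21.04, 39.5 and 29.96 CPM against 9.47, 11.7, 14.6 and 12.3 in turn, with all 4 UNX/DOCA vehicle libraries above Sham vehicle and replicates 3 and 4 the highest. Ccl24, an eosinophil attractant, had 1.28, 0.905, 1.54 and 1.26 CPM against 2.93, 1.79, 2.49 and 2.44, with all 4 below (log2 fold change -0.95 ± 0.22 SE, adjusted p = 0.0998, edgeR). Il33, an alarm signal released by injured stromal cells, had 2.94, 9.15, 27.4 and 20.9 CPM against 2.51, 1.98, 3.01 and 2.16, a steep gradient in which replicate 1 overlapped with Sham vehicle (log2 fold change 2.64 ± 0.57 SE, adjusted p = 0.0998, edgeR). Interleukin receptor genes were a list added after the data were seen. Of 23 measured, 7 had an unadjusted p below 0.05 and a higher and 0 a lower mean. The median of those receptor genes was 0.40 and turned to -0.02 without replicates 3 and 4. Csf2rb2, a chain related to the interleukin 3 receptor, had 1.35, 3.103, 13.8 and 5.32 CPM against 1.06, 1.12, 0.870 and 0.841 without overlap (log2 fold change 2.58 ± 0.64 SE, adjusted p = 0.121, edgeR), although near-identical Csf2rb may share its reads.

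Neutrophil genes had the widest spread. The 10 genes whose spread in UNX/DOCA vehicle most exceeded that in Sham vehicle were Retnlg, S100a8, S100a9, Mmp8, Mmp9, Ngp, Ltf, Cd177, Cxcr2 and Fosb, and all but Fosb, an immediate early transcription factor, are known from neutrophils. S100a8, an abundant protein of neutrophil cytosol, had 4.45, 0.356, 157 and 35.9 CPM against 7.91, 12.9, 3.13 and 7.33, so replicates 3 and 4 of UNX/DOCA vehicle were above every other library and replicate 2 was the lowest of all 8. S100a9, its partner, had 9.31, 0.776, 217 and 60.6 CPM against 14.5, 18.4, 4.79 and 13.9, and the granule gene Ngp had 0.439, 0.0323, 99.9 and 6.22 CPM against 0.646, 7.096, 0.277 and 0.721. The secreted Retnlg had 2.06, 0.0323, 47.6 and 18.2 CPM against 2.66, 4.08, 1.07 and 4.12, and the chemokine receptor gene Cxcr2 had 1.25, 0.194, 15.2 and 10.5 CPM against 2.36, 1.704, 0.950 and 2.04. The metalloproteinases Mmp8 and Mmp9 had 0.675, 0.0970, 25.4 and 11.3 CPM against 1.06, 2.23, 0.989 and 2.24 and 1.48, 0.0323, 40.4 and 7.804 CPM against 2.89, 3.02, 0.593 and 2.403 in turn. In these 4 genes as well, replicate 3 of UNX/DOCA vehicle was the highest and replicate 2 the lowest library. Ltf and Cd177 had 0.304, 0, 81.1 and 4.71 CPM against 0.418, 7.43, 0.198 and 0.481 and 0.101, 0.0323, 20.6 and 1.26 CPM against 0.456, 1.17, 0.158 and 0.441 in turn. The median log2 fold change of 10 neutrophil markers was 2.48 over all libraries and -1.44 without replicates 3 and 4, so its sign rested on that pair. Fosb had 9.99, 0.356, 130.3 and 66.4 CPM against 131, 29.8, 104 and 28.9, without a pattern by group.

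Vessel and blood genes came next. Blood vessel endothelial markers had 4 of 17 at an unadjusted p below 0.05 and higher, with a median of 0.22 (0.09 without replicates 3 and 4). Pecam1, the junction protein CD31, had 171, 225, 254 and 234 CPM against 156, 162, 172 and 155, Ly6c1 had 160.3, 219, 265 and 256 CPM against 139.5, 149, 177 and 142 and the venous regulator Nr2f2 had 4.02, 9.76, 13.9 and 8.38 CPM against 6.31, 4.69, 4.51 and 3.64. In the first pair replicate 1 of UNX/DOCA vehicle lay within Sham vehicle and replicates 2 to 4 above it. Angpt1 and Angpt2, ligands of the endothelial receptor Tek that are known to oppose each other, had 23.4, 18.9, 8.64 and 14.3 CPM against 40.1, 24.7, 43.7 and 28.3 and 5.601, 18.2, 14.5 and 20.3 CPM against 6.01, 7.15, 3.996 and 7.29 in turn. Angpt1 was lower in all 4 UNX/DOCA vehicle libraries (log2 fold change -1.06 ± 0.31 SE, adjusted p = 0.148, edgeR), and Angpt2 was higher in replicates 2 to 4 (log2 fold change 1.26 ± 0.35 SE, adjusted p = 0.136, edgeR). Of 14 smooth muscle and pericyte genes, 4 were below 0. At an unadjusted p below 0.05, 3 had a higher and 2 a lower mean, and the median was 0.13 (0.03 without replicates 3 and 4). Tagln, a further gene of this list, had 3 to 10 counts in a library and was not tested. Cnn1, a calponin of contractile smooth muscle, had 3.51, 6.11, 4.82 and 2.09 CPM against 0.722, 1.26, 1.503 and 1.36 without overlap (log2 fold change 1.77 ± 0.54 SE, adjusted p = 0.167, edgeR), Mcam had 44.6, 51.5, 90.6 and 78.4 CPM against 38.9, 43.4, 33.4 and 39.4 without overlap (log2 fold change 0.77 ± 0.20 SE, adjusted p = 0.125, edgeR) and Myh11 had 27.5, 39.7, 58.01 and 22.4 CPM against 20.4, 20.8, 26.2 and 21.98 with overlap. The lower ones were Abcc9, given above (-0.54), and Smtn, the gene of smoothelin, at 107 to 143 CPM against 134 to 146 with overlap (-0.19). Erythroid markers were all below 0, 5 of 10 at an unadjusted p below 0.05, with a median of -0.67 that ran from -0.94 to -0.44 under the other settings. Hbb-bt, a beta globin with near-identical copies, had 15.9, 26.7, 25.4 and 27.3 CPM against 49.04, 44.5, 44.2 and 43.4, and Alas2, the heme enzyme of red cell precursors, had 7.32, 19.7, 21.7 and 17.5 CPM against 28.2, 24.9, 28.4 and 24.5. Replicate 1 of UNX/DOCA vehicle was the lowest for both, and no overlap was seen.

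Epicardial markers were thin, with 6 of 14 measured and the defining markers Upk3b and Msln at no more than 12 and 9 counts. Of the measured ones 2 were below 0, 2 had an unadjusted p below 0.05 and a higher and 0 a lower mean, and the median of 0.39 turned to -0.01 without UNX/DOCA vehicle replicates 3 and 4. Aldh1a2, which makes retinoic acid, had 5.16, 5.98, 9.43 and 10.2 CPM against 4.83, 3.32, 2.85 and 4.08 without overlap, and the keratin gene Krt18 had 0.485 to 1.54 CPM against 0.190 to 0.761 with overlap. Lymphatic endothelial markers had 2 of 7 higher and 0 lower at that p, and their median of 0.34 turned to -0.02 without those replicates. One of them, Pdpn, the gene of podoplanin, had 1.79, 2.26, 5.61 and 3.81 CPM against 1.48, 1.59, 1.701 and 1.802. The defining genes Cd3e of T cells, Cd79a of B cells and Adipoq of fat cells had at most 11, 17 and 11 counts in a library. Of the T and NK cell list 3 of 12 genes were measured and of the B cell list 7 of 11, with 0 of either at an unadjusted p below 0.05. Of 10 fat cell markers 4 were measured, at a summed 294 to 472 CPM against 274 to 450.4, most of it from the lipid droplet gene Plin4 (265 to 431 CPM against 256 to 434).

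Beyond the lists, some genes had large differences. Tmem100, a membrane protein induced by BMP signals in endothelium, had 4.59, 5.79, 20.6 and 18.5 CPM against 3.19, 3.604, 3.36 and 3.04, with replicates 3 and 4 highest (log2 fold change 1.90 ± 0.44 SE, adjusted p = 0.108, edgeR). Syt12, a synaptotagmin of vesicle release, had 3.85, 11.5, 5.98 and 11.6 CPM against 1.22, 2.095, 3.402 and 1.92 (log2 fold change 1.93 ± 0.61 SE, adjusted p = 0.181, edgeR). On the lower side Atcay, the gene of caytaxin, had 2.801, 0.291, 2.58 and 0.575 CPM against 15.02, 4.64, 4.95 and 5.01, a ratio of 0.211 (log2 fold change -2.25 ± 0.61 SE, adjusted p = 0.135, edgeR). Rtn4r, the Nogo receptor, had 7.46, 2.65, 3.32 and 3.704 CPM against 14.7, 16.5, 8.55 and 15.8 (log2 fold change -1.70 ± 0.38 SE, adjusted p = 0.0998, edgeR), and Irs2, which relays insulin signals, had 22.1, 5.24, 31.6 and 19.9 CPM against 73.5, 34.9, 59.5 and 52.3 (log2 fold change -1.49 ± 0.65 SE, adjusted p = 0.303, edgeR). Pcdh12, a protocadherin of endothelium, had 8.67 to 15.5 CPM against 17.1 to 34.7 (-1.15), and Inka2, an inhibitor of the kinase Pak4, had 10.4 to 24.2 CPM against 24.3 to 55.4 (-1.15). None of these 7 overlapped between groups, which the choice of the genes required.

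Leaving out UNX/DOCA vehicle replicate 1 gave more edgeR calls than any other edgeR setting tried, as the plot of calls by setting shows. Replicate 1 correlated more with Sham vehicle than with its own group (0.984 against 0.977). The fit without it therefore favours a difference between the groups, and its calls are no separate support. The 6 higher genes with the smallest p in that fit were Myo1e, Vat1, Cavin3, Shb, Arpc1b and Il33. Myo1e, an unconventional myosin of actin-rich membranes, had 14.6, 35.3, 38.9 and 42.1 CPM against 14.9, 14.1, 12.03 and 15.4, so replicate 1 alone lay within Sham vehicle, and its log2 fold change went from 1.21 to 1.45 without it (edgeR adjusted p = 0.00695). Vat1 had 21.5, 34.5, 49.5 and 39.8 CPM against 18.4, 18.1, 20.8 and 16.9 (adjusted p = 0.00695 without replicate 1, edgeR), and Shb, an adaptor of tyrosine kinase receptors, had 20.01, 38.9, 35.8 and 44.3 CPM against 18.8, 15.1, 17.2 and 16.8 (adjusted p = 0.00948 without replicate 1, edgeR). The 6 lower genes were Abca6, Akr1c14, Syne2, Fitm2, Senp7 and Plekhh2. Akr1c14, a hydroxysteroid dehydrogenase, had 17.1, 8.27, 7.15 and 6.83 CPM against 14.6, 12.7, 12.5 and 13.98, with replicate 1 above and replicates 2 to 4 below every Sham vehicle library (adjusted p = 0.0155 without replicate 1, edgeR). Plekhh2 showed the same order, at 6.07, 2.62, 2.83 and 2.697 CPM against 5.17, 5.39, 5.66 and 4.81. Syne2, a nuclear envelope anchor, had 31.4 to 49.1 CPM against 48.2 to 57.1, Fitm2, of lipid droplet formation, had 135 to 202 CPM against 198 to 224, and Senp7, a SUMO protease, had 7.44 to 11.4 CPM against 13.1 to 14.4. Without replicate 1 the genes Scx, Cysltr1 and Itpr2 were called too (adjusted p = 0.0227, 0.0169 and 0.0244, edgeR), while Ankrd1 (0.0533), Nppa (0.143) and Atp2a2 (0.0638) were not.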

How the data were processed

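The authors deposited a table of raw counts per Ensembl gene for 12 left ventricular libraries of mice. Per the labels' protocols, poly(A) RNA was made into strand-specific libraries read in pairs. The submitters' processing notes name FastQC 0.11.9, STAR 2.7.10b and the mm39 build. How reads were counted, with which strand setting and annotation, is not given in the sources used here. Counts were whole numbers with different totals, and every pair of replicates differed by more than sampling noise, with a chi-square of 11.03 to 58.0 per degree of freedom. Symbols were matched by Ensembl identifier to a GRCm38 annotation (51486 of 78334 rows, 15957 of 16981 genes tested). Promoters came from a RefSeq table of GRCm38.p6, so their coordinates are not those of the counting build.

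The main test was the quasi-likelihood F test of edgeR 4.0.16 (R 4.3.3), with filterByExpr (minimum count 10), TMM scaling and a robust quasi-likelihood fit of all 12 libraries, with 9 residual degrees of freedom, a common biological coefficient of variation of 0.187 and Benjamini-Hochberg adjustment at 0.05. Where no tool is named, an adjusted p comes from it. CPM values are TMM-scaled; log2 CPM for list scores and components had a prior count of 2. The code was tested on simulated data. DESeq2 1.42.0, limma-voom (limma 3.58.1), other scalings and filters, a replicate block and libraries left out were tried as alternatives. DESeq2 gave no adjusted p to 1979 genes.

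Genes were named by rule: the 12 with the smallest p in each direction without overlap and with at least 1 CPM, a fixed set of load, matrix and corticoid genes, up to 5 genes with the smallest p per list, the 10 with the largest excess of spread, the 6 per direction with the smallest p without UNX/DOCA vehicle replicate 1, and the 6 per direction with the largest fold change. Some genes that these rules name are not reported here. The members, the 46 gene lists and these rules were chosen with earlier results of these data known. A further 10 lists (kidney tubule genes and gene families such as annexins, tropomyosins and ABC transporters) and 3 kinds of alternative were added after the data were seen. Lists are described by counts and medians, and no list was tested.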

Additional observations from a re-analysis of the deposited data

Results flagged for a closer look

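For each of the 175 named genes, the highest and lowest library of each group of 4 was set against the others. In 26 of the 350 groups 1 library stood apart by Dixon's criterion, its gap to the nearest other library being more than 0.829 of the group's range. Chance alone flags about 5% of groups, but some of the genes were named for their spread in UNX/DOCA vehicle (among them Ngp, Ltf and Cd177) or from the fit without its replicate 1 (among them Akr1c14 and Plekhh2), so the share flagged cannot be read against that rate.

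In UNX/DOCA vehicle, replicate 3 was the highest for Ngp (99.9 CPM), Ltf (81.1 CPM) and Cd177 (20.6 CPM), which neutrophils express, and for the matrix genes Pcolce (71.1 CPM) and Sparc (569.8 CPM). For the potassium channel subunit Abcc9 it was the lowest (240.8 CPM). Replicate 1 was the lowest for the globin gene Hbb-bt (15.9 CPM) and the nuclear receptor gene Nr4a3 (28.8 CPM) and the highest for Akr1c14 (17.1 CPM) and Plekhh2 (6.07 CPM). Replicate 2 was the highest for Adcy6 (220.8 CPM) and the lowest for Col4a1 (429 CPM) and Bdh1 (182.6 CPM). Replicate 4 was the highest for Angptl4 (35.5 CPM).

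In Sham vehicle, replicate 3 was the highest for Fkbp5 (150.5 CPM) and Mt2 (0.950 CPM), described above with the corticoid targets. It was also the highest for the mitochondrial carrier gene Ucp2 (102.6 CPM), for Agt (6.57 CPM) and for Tpm1 (8882 CPM). Replicate 4 was the highest for Postn (65.4 CPM), Frzb (6.45 CPM), Serpina3n (52.2 CPM) and Mybpc2 (39.5 CPM). Replicate 2 was the highest for Ngp (7.10 CPM) and Ltf (7.43 CPM), and replicate 1 for Atcay (15.02 CPM).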

How the results depend on the processing

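The count of genes called by edgeR was 0 with RLE scaling, library totals, a filter of 1 CPM in 4 libraries, no robust option, only the 8 libraries of the groups compared, Sham vehicle without replicates 1 and 3, and a kidney gene score as covariate. It was 7 with upper-quartile scaling, 210 with no filter, 593 with DESeq2, 559 with limma-voom, 1 without UNX/DOCA vehicle replicates 3 and 4, and 0 to 380 when single libraries were left out, the 380 without UNX/DOCA vehicle replicate 1. At an unadjusted p below 0.05 there were 2699 genes, 1199 without UNX/DOCA vehicle replicates 3 and 4 and 1612 without Sham vehicle replicates 1 and 3, fits with fewer samples. With the replicate number as a block 31 genes were called (26 higher, 5 lower). Same-numbered libraries of the groups correlated at 0.02, 0.07, -0.09 and 0.05 in their deviations, and 1 of 4 matched best with its own number, so the numbers give no pairing.

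Of the log2 fold changes of the 175 named genes, 14 genes turned sign under some setting, and the cause was not tested. Without UNX/DOCA vehicle replicates 3 and 4 this was so for Cd177 (-3.04), Ltf (-3.85), Ngp (-3.255), Mmp8 (-2.09), S100a8 (-1.71), Mmp9 (-1.57), Retnlg (-1.53), S100a9 (-1.36), Cxcr2 (-1.29), Per1 (-0.20), Sgk1 (-0.19) and Fn1 (-0.060). With limma-voom it was so for Ltf (-0.54), Mmp9 (-0.48), Cd177 (-0.38), Retnlg (-0.29), Ngp (-0.13) and S100a8 (-0.037). Without Sham vehicle replicates 1 and 3, Fosb was at 0.80 and Nppb at 0.32. With the kidney gene score, Fosb was at 1.03 and Ltf at -0.55. With single libraries left out, Cd177 ran from -0.35 to 3.91, Ltf from -0.42 to 5.835, Ngp from -0.035 to 5.57, Nppb from -0.33 to 0.13 and Per1 from -0.015 to 0.53. At this depth 1 CPM rests on about 28 reads, so genes near that level carry visible counting error.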
